A study of Mus musculus with 2 samples.

Results

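The genes described here are 40 regulators and structural genes of skeletal muscle, measured in dissected mouse ureters at E14.5. They were chosen by name: every gene probe whose gene name in the scanner files is 1 of the 40 symbols was taken, which gave 58 probes among 39429 gene probes of 30011 genes. Of the 40 genes, 32 had at least 1 probe above background and were measured. The Gata6cKO embryos, Tbx18(cre/+);Gata6(fl/fl), have both Gata6 copies floxed and cre in 1 copy of Tbx18, which mesenchymal cells surrounding the ureteric epithelium express, so deletion is expected in cells that express or expressed Tbx18. The control embryos, Gata6(fl/?), have at least 1 floxed copy, their second allele is not given, and their labels name no cre. Cre and the Tbx18 copy that holds it therefore go with the Gata6cKO genotype and cannot be told apart from it. All embryos were of the NMRI strain. A male pair of RNAs (Gata6cKO in Cy5, control in Cy3) was hybridised to one two-colour array and a female pair with the dyes exchanged to the other, so sex, dye and array cannot be told apart. Both arrays lay on the same slide. Whether an RNA is of a single embryo or pooled embryos, and of which litter, is not given in the labels, so p-values measure only the spread between these samples, which may be technical.

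Skeletal muscle arises from precursors marked by Pax3 and Pax7, in which the basic helix-loop-helix factors Myf5, Myod1, Myog and Myf6 switch on the genes of the contractile apparatus by binding short sequences called E boxes. In the sarcomere, myosin thick filaments pull on actin thin filaments under the control of the troponin complex, and embryonic, perinatal and slow isoforms precede most adult ones. The wall of the ureter forms smooth muscle, whereas skeletal muscle lies outside it in the body wall and the limbs.

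The median spot signal of the male array was 425 for Gata6cKO in Cy5 and 232 for control in Cy3, and that of the female array was 224 for Gata6cKO in Cy3 and 442 for control in Cy5. Between 67.2% and 68.5% of spots were well above background in each RNA, and the number of arrays (2) limits the precision. The Gata6 probe read higher in the RNA labelled Gata6cKO, by 0.85 in the male pair and 0.46 in the female pair (mean log2 ratio 0.65 ± 0.12, moderated SE, n = 2 arrays; limma adjusted p = 0.00573). Whether that probe lies in the floxed part was not settled here, so it checks nothing about the labels, and directions below are those of the labelled RNAs.

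A subset of the skeletal muscle genes was higher in Gata6cKO ureters. In limma's fit over 19875 genes, with Benjamini-Hochberg adjustment and a threshold of 0.05, 9 of the 32 measured members rose (28.1%), where 2.22% of all tested genes rose. The 9 were Myog, Myh3, Myh8, Myl1, Tnnt1, Tnnc2, Actn2, Mybph and Chrna1, with log2 ratios between 0.44 and 1.04, and the largest was Myh3 at 2.06-fold. In the same fit 0 members fell, where 2.36% of all genes fell, and at an unadjusted p under 0.05 the counts were 18 higher (56.2%, against 5.25% of all genes) and 1 lower, the cardiac actin gene Actc1 (3.12%, against 6.1%). The median log2 ratio of the 32 members was 0.28, with 0.34 in the male pair and 0.22 in the female pair, and it was 0.00 over all genes. A probe was kept where either genotype was well above background on both arrays, and 4 members (Chrna1, Chrnd, Pax3 and Smpx) were kept through Gata6cKO alone, so a higher level there is favoured by the filter. With both genotypes required, 28 members were measured, 8 rose (all but Chrna1) where 2.09% of all genes did, and the median was 0.30. In bulk RNA, more cells of a type and more RNA per cell cannot be told apart. With every kept probe tested on its own, 14 of the 36 kept member probes rose, in 12 genes, where 2.23% of all kept probes rose. The count of risen members ranged from 1 to 16 over 12 settings, and the share of all genes from 0.453% to 3.42%. The count was 1 (Myh3) with median centring in place of loess, where 0.453% of all genes rose. It was 1 (Tnnt1) when the 4 RNAs were fitted as separate channels, where 1.37% rose. There the RNAs of an array were fitted almost as unpaired (correlation within spots -0.044), and the log2 ratios did not change.

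**Figure D1:**
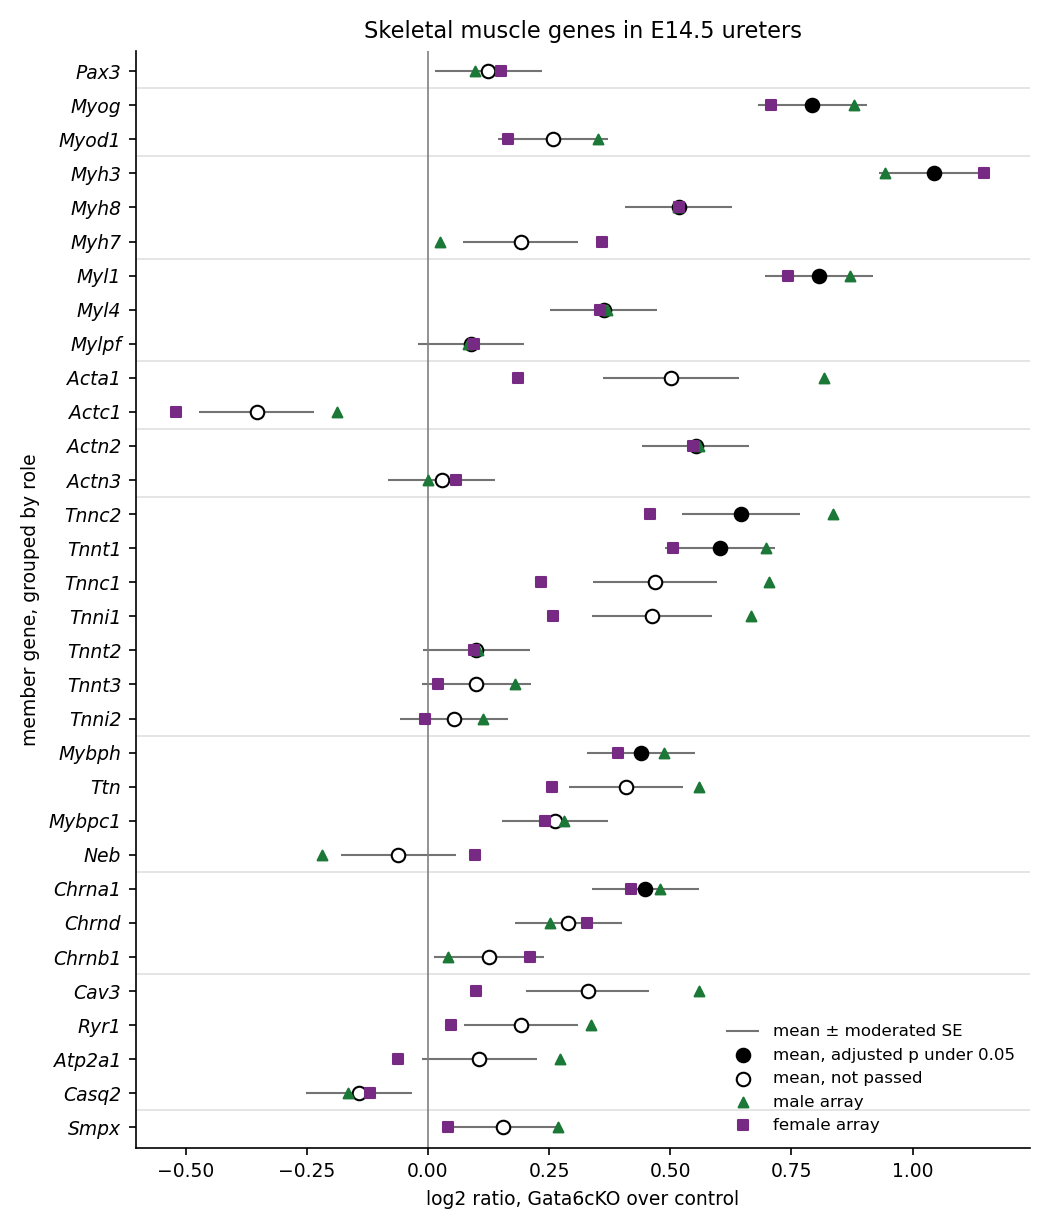
Log2 ratio of Gata6cKO over control for the 32 measured members, grouped by role, with the male array (triangles), the female array (squares) and the mean with its moderated SE (circles, filled where the limma adjusted p is under 0.05). Of the 32 genes, 26 lie above 0 on both arrays, the 9 filled circles lie between 0.44 and 1.04, and Actc1 lies lowest at -0.35.

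Each array can also be read alone, as 1 pair of RNAs with no test. On the male array 12 of 32 members had a log2 ratio over 0.5, against 2.49% of all genes, and on the female array 6 of 32 did, against 2.41%. The same 6 genes, Myog, Myh3, Myh8, Myl1, Tnnt1 and Actn2, passed 0.5 on both, against 1.3% of all genes. Below -0.5 there were 0 members on the male array (2.62% of all genes) and 1 on the female array, Actc1 (2.48%). The ratio was above 0 on both arrays in 26 members, against 23.4% of all genes, the 4 kept through Gata6cKO alone among them. Without these 4 it was so in 22 of 28, against 23.2% of the genes above background in both genotypes. It was below 0 on both in 2, Actc1 and the calcium store protein gene Casq2, against 25.4%. The threshold of 0.5, the counts over these 28 members and the comparison of levels between arrays given further on, were chosen after the data were seen.

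Among the regulators, Myog (myogenin), the factor that drives the differentiation of committed myoblasts, was the one that passed. Its level, here and below the log2 of the normalised intensity of 1 probe, was 9.05 in male and 8.41 in female Gata6cKO RNA, against 8.17 in male and 7.71 in female control RNA. Both Gata6cKO levels lay above both control levels, and within each genotype the male RNA was the higher one. The log2 ratio was 0.88 in the male pair and 0.71 in the female pair, a mean of 0.79 ± 0.11 (moderated SE, n = 2 arrays) or 1.73-fold (limma adjusted p = 7.36e-04). Myod1, a factor that commits cells to the muscle lineage, had levels of 7.54 and 7.37 in male and female Gata6cKO RNA, against 7.19 and 7.21 in male and female control RNA. Its levels did not overlap, but the mean log2 ratio of 0.26 (95% interval 0.01 to 0.50) did not pass (limma adjusted p = 0.379). Pax3, the precursor factor, stood at 6.93 and 6.94 in male and female Gata6cKO RNA and 6.84 and 6.79 in male and female control RNA. These lie near the lowest signals well above background, 6.72 to 6.79 in the 4 RNAs, and the log2 ratio of 0.12 did not pass. The other 3 factors of the set, Myf5 and Pax7 of early precursors and Myf6 of later fibres, were not well above background on both arrays in either genotype and were not tested.

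The promoter of Myog is shown because it is the regulator that passed and because the family binds E boxes. The 250 bases before its start, from RefSeq (GRCm38.p6, chr1:134289754-134290003, plus strand), hold the E-box motif CANNTG 2 times, in capitals, 138 and 12 bases before the start.
Myog promoter: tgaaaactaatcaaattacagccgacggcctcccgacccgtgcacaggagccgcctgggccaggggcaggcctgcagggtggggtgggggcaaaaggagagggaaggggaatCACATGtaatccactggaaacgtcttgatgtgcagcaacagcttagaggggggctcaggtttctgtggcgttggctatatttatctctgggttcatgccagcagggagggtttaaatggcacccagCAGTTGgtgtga
Promoters (250 bases before and 50 after the start, both strands searched) were given for 32 of the 40 members, not the same 32 as were measured. CANNTG was found in 26 of the 32 (81.25%), and in 74.99% of 27025 promoters of all genes. All 9 risen members were among the 26. CAGCTG, a form of CANNTG and so counted in it too, was found in 14 of 32 (43.75%), against 18.29% of all promoters, and in 3 of the 9 risen members, Chrna1, Mybph and Myl1. For MEF2, the partner factors of the myogenic family, a strict form of the motif was searched, with fixed ends and only A or T between. This form was found in 2 of 32, Ttn and Klhl41 (6.25%, against 0.64% of all). Looser forms were not searched, so a promoter without a match, that of Myog included, may still hold a MEF2 site. A match is a stretch of letters, and binding was not measured here.

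The largest ratio among the members was that of a thick filament gene. Myh3, the embryonic myosin heavy chain, had levels of 11.18 in male and 9.88 in female Gata6cKO RNA, against 10.23 in male and 8.73 in female control RNA. The Gata6cKO RNA was higher within each sex, yet the male control lay above the female Gata6cKO, so the groups overlapped. Its log2 ratio was 0.94 in the male pair and 1.15 in the female pair, a mean of 1.04 ± 0.11 (n = 2 arrays; limma adjusted p = 9.52e-05). Myh8, the perinatal heavy chain, had levels of 9.25 and 8.54 in male and female Gata6cKO RNA, against 8.74 and 8.02 in male and female control RNA. Here too the sexes lay further apart than the genotypes, and the groups overlapped. The log2 ratio was 0.52 on both arrays, a mean of 0.52 ± 0.11 (limma adjusted p = 0.0134). Myh7, the slow heavy chain that the heart also uses, had 9.39 and 8.90 in male and female Gata6cKO RNA, against 9.36 and 8.54 in male and female control RNA. Its ratio was 0.02 in the male pair and 0.36 in the female pair and did not pass (limma adjusted p = 0.777). Myh1, an adult fast heavy chain, was at background in all 4 RNAs.

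Because myosin heavy chains are a family of close relatives, the probes of the pair that rose were compared. Of the 2 Myh3 and 4 Myh8 probes, the most alike pair shared 29 of 48 overlapping bases (60.4%), and the other pairs shared at most 44.9%. The pair is printed from the scanner files (mm9, plus strand), Myh3 at chr11:66915107-66915166 and Myh8 at chr11:67121925-67121984, with the 19 differing bases of the overlap in capitals.
Myh3 probe: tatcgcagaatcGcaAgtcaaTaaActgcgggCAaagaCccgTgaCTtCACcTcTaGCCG
Myh8 probe: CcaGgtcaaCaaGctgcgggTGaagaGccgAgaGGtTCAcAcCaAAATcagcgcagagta
This Myh3 probe gave a log2 ratio of 0.81 in the male pair and 1.12 in the female pair, close to the 0.94 and 1.15 of the brighter Myh3 probe that stands for the gene. Of the Myh8 probes, the one printed was above background, while the other 3, from earlier parts of the annotated transcripts, were not above background on both arrays, so the rise of Myh8 rests on 1 probe. Cross-hybridisation within the family was not tested.

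**Figure D2:**
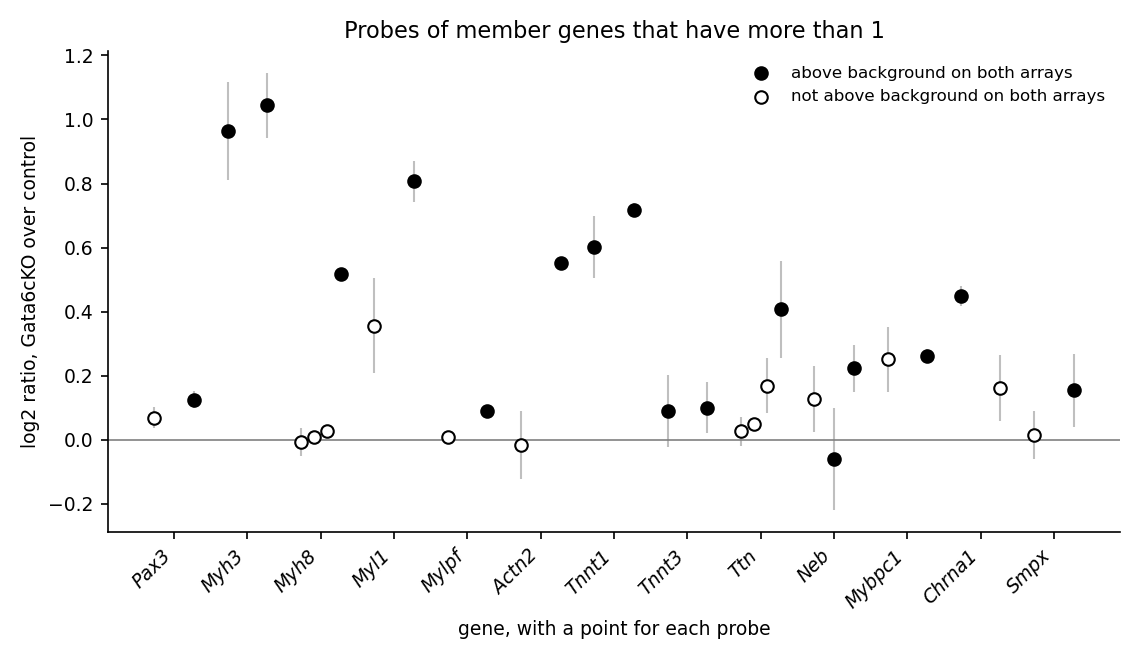
Log2 ratio of Gata6cKO over control for each probe of the 13 member genes with more than 1 probe, with a point at the mean and a line joining the arrays, in order of the probe's start in its annotated transcript. Both Myh3 probes and both Tnnt1 probes lie above 0.5, while the 3 Myh8 probes not above background on both arrays (open) lie near 0.

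Of the 3 light chain genes 1 rose. Myl1, which encodes the alkali light chains of fast and embryonic muscle, had levels of 11.31 in male and 10.73 in female Gata6cKO RNA, against 10.44 in male and 9.99 in female control RNA. Both Gata6cKO RNAs lay above both controls. The log2 ratio was 0.87 in the male pair and 0.74 in the female pair, a mean of 0.81 ± 0.11 (limma adjusted p = 5.99e-04), or 1.75-fold. Its other probe, for another annotated transcript, was not above background on both arrays. Myl4, the embryonic and atrial light chain, had a ratio of 0.37 in the male pair and 0.36 in the female pair and did not pass (limma adjusted p = 0.0966). Mylpf, the fast regulatory light chain, had a ratio of 0.09 and did not pass. The Mylpf probe that was kept is annotated to a predicted transcript, and its other probe, for another annotated transcript, was not above background. The Myl1 promoter is shown because this risen member holds CAGCTG, 224 bases before the start (RefSeq, GRCm38.p6, chr1:66945057-66945306, minus strand, capitals for the motif).
Myl1 promoter: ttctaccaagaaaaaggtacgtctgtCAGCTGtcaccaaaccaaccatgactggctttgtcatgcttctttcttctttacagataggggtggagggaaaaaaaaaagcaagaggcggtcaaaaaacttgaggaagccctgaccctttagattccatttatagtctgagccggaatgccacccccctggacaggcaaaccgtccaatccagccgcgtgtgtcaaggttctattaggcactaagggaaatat

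Of the 2 sarcomeric actin genes neither passed, and they stood on opposite sides of 0. Acta1, the skeletal actin, had levels of 9.98 in male and 9.12 in female Gata6cKO RNA, against 9.17 in male and 8.93 in female control RNA. The male Gata6cKO RNA stood well apart from the other 3 and the female Gata6cKO RNA lay just below the male control. The ratio was 0.82 in the male pair and 0.19 in the female pair, the only member whose arrays differed by more than 0.5 (mean 0.50 ± 0.14, limma adjusted p = 0.0649). Actc1, the cardiac actin that embryonic skeletal muscle also makes, had 14.09 and 13.63 in male and female Gata6cKO RNA, against 14.27 and 14.15 in male and female control RNA. Both Gata6cKO levels were below both controls. Its log2 ratio of -0.19 in the male pair and -0.52 in the female pair averaged -0.35 (95% interval -0.61 to -0.10) and did not pass (limma adjusted p = 0.151).

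All 7 troponin genes were measured and 2 rose. Tnnt1, slow skeletal troponin T, had levels of 13.81 in male and 13.61 in female Gata6cKO RNA, against 13.11 in male and 13.10 in female control RNA. The control RNAs were alike and both Gata6cKO RNAs lay above them. The ratio was 0.70 in the male pair and 0.51 in the female pair, a mean of 0.60 ± 0.11 (limma adjusted p = 0.00578), and a second probe gave 0.70 and 0.74. Tnnc2, fast troponin C, had 11.50 and 10.77 in male and female Gata6cKO RNA, against 10.67 and 10.31 in male and female control RNA, again with no overlap. Its ratio was 0.84 in the male pair and 0.46 in the female pair, a mean of 0.65 ± 0.12 (limma adjusted p = 0.00587). Tnnc1, the slow and cardiac troponin C, and Tnni1, slow troponin I, came close to the threshold, with mean ratios of 0.47 and 0.46 (limma adjusted p = 0.0571 and 0.0522). For both, the male array carried most of the difference, at 0.70 for Tnnc1 and 0.67 for Tnni1, against 0.23 and 0.26 on the female array. The fast isoforms Tnnt3 and Tnni2 and the cardiac and embryonic Tnnt2 had ratios of 0.10, 0.05 and 0.10 and did not pass. For Tnnt3 the 2 kept probes, which share 27 bases, gave 0.10 and 0.09.

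At the Z disc, Actn2, an alpha-actinin that crosslinks thin filaments in skeletal muscle and heart, rose. It had levels of 7.92 in male and 7.48 in female Gata6cKO RNA, against 7.36 in male and 6.94 in female control RNA, with no overlap. The ratio was 0.56 in the male pair and 0.55 in the female pair, a mean of 0.55 ± 0.11 (limma adjusted p = 0.00871). Its other probe was not above background. Actn3, the alpha-actinin of fast fibres, had a ratio of 0.03 and did not pass. Of the 4 filament scaffold genes, Mybph, a myosin-binding protein, rose. Its levels of 8.24 and 7.72 in male and female Gata6cKO RNA, against 7.76 and 7.33 in male and female control RNA, overlapped by a small margin. The ratio was 0.49 in the male pair and 0.39 in the female pair (mean 0.44 ± 0.11, limma adjusted p = 0.0372). Ttn, the giant spring titin, had 0.56 in the male pair and 0.26 in the female pair (limma adjusted p = 0.0755) and Mybpc1, the slow myosin-binding protein C, 0.28 and 0.24, and neither passed. Neb, the thin filament ruler nebulin, had 2 probes above background with opposite signs. The brighter gave -0.22 in the male pair and 0.10 in the female pair and the other 0.30 and 0.15, and as the mean of both the ratio turned to 0.08.

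At the neuromuscular junction, 1 of the 3 measured genes rose. Chrna1, the ligand-binding alpha subunit of the muscle acetylcholine receptor, had levels of 7.58 in male and 7.12 in female Gata6cKO RNA, against 7.11 in male and 6.70 in female control RNA. The groups just failed to overlap. The female control was not well above background, so the probe was kept through Gata6cKO alone and the female ratio is against a signal that may be background. Its ratio was 0.48 in the male pair and 0.42 in the female pair, a mean of 0.45 ± 0.11 (limma adjusted p = 0.0324). With both genotypes required to be above background Chrna1 was not tested and the call was lost. Its other probe, not above background on both arrays, gave 0.06 in the male pair and 0.265 in the female pair. The rise of Chrna1 thus rests on 1 probe. Chrnd, the delta subunit, was not well above background in control RNA on either array, and its difference did not pass (limma adjusted p = 0.245). The measured means give a bound of 1.11-fold, higher in Gata6cKO, which carries no error, so a rise is not shown. This bound sets the Gata6cKO mean against the lowest signal well above background, or the control's own signal where that was higher. Chrnb1, the beta subunit, had a ratio of 0.13 and did not pass. Chrng, the fetal gamma subunit, was at background, and Musk, the receptor kinase that organises the junction, was well above background only on the female array. There it stood at 7.34 in Gata6cKO and 7.31 in control RNA, against 6.37 in Gata6cKO and 6.32 in control RNA on the male array. The Chrna1 promoter is shown because it holds CAGCTG 2 times close to the start, 92 and 44 bases before it (RefSeq, GRCm38.p6, chr2:73580339-73580588, minus strand, capitals for the motif).
Chrna1 promoter: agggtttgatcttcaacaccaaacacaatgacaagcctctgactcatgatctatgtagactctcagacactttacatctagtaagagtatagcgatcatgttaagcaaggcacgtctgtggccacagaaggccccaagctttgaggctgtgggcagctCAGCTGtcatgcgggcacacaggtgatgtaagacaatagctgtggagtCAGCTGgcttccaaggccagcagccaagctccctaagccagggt

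Genes of calcium release and the surface membrane did not pass. Cav3, the muscle caveolin, had a log2 ratio of 0.56 in the male pair and 0.10 in the female pair (limma adjusted p = 0.255). Ryr1, the calcium release channel, had 0.34 and 0.05, and Atp2a1, the calcium pump of fast fibres, had 0.27 and -0.06. Casq2, a calcium store protein of slow and cardiac muscle, had -0.17 and -0.12. Smpx, a small X-linked muscle protein, had a ratio of 0.15. Ckm, the muscle creatine kinase of mature fibres, and Klhl41, which stabilises sarcomere proteins, were not above background and were not tested. The 8 members not tested were thus Myf5, Myf6, Pax7, Myh1, Chrng, Ckm, Musk and Klhl41. Across all 32 measured members the groups did not overlap, with both Gata6cKO RNAs above both controls, in 14 (against 15.9% of all genes), and lay the other way in 2, Actc1 and Casq2 (17.6% of all genes). The 14 hold the 4 genes kept through Gata6cKO alone, and without them it was 10 of 28, against 15.7% of the genes above background in both genotypes.

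**Figure D3:**
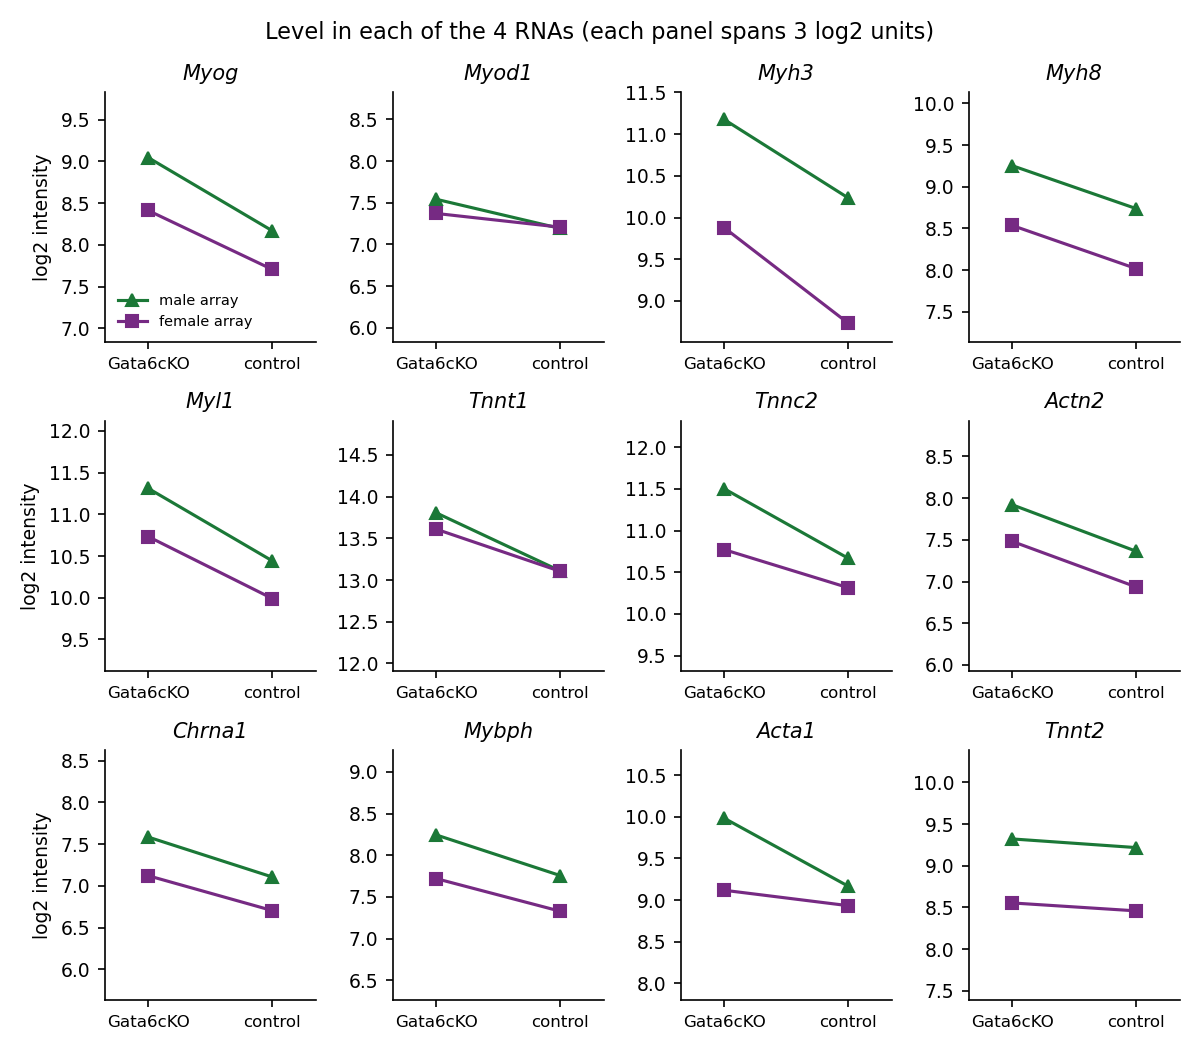
Level (log2 normalised intensity) of 12 members in each of the 4 RNAs, Gata6cKO left of control, with lines joining the pair on the male (triangles) and the female array (squares). Gata6cKO is the higher end of both lines in all 12 panels, the lower end of the male line lies above the upper end of the female one in Myh3, Myh8, Mybph, Acta1 and Tnnt2, and in Tnnt1 and Myod1 the control levels nearly coincide.

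Member levels differed between the arrays as well as between the genotypes. Averaged over both genotypes, the male array was higher than the female array in 28 of 32 members (87.5%), against 52.9% of all genes, with a median difference of 0.40 on the log2 scale, against 0.01 over all genes. The difference was over 0.5 in 10 members, against 0.397% of all genes. Both male RNAs lay above both female RNAs in 14 members (15.8% of all genes) and below in 2, Actn3 and Atp2a1 (15.8% of all genes). Myh3 differed most, by 1.30 between male and female Gata6cKO RNA and by 1.50 between male and female control RNA. Only 0.025% of all genes had a mean difference as large as its 1.40 in either direction. Tnnt2 had levels of 9.32 and 8.55 in male and female Gata6cKO RNA, against 9.22 and 8.46 in male and female control RNA. It thus differed by 0.76 between the arrays and by 0.10 between the genotypes. For Tnnt1 the order was turned round, with 0.10 between the arrays and 0.60 between the genotypes.

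The 2 differences went together across members. Over the 32 members the Pearson r between the log2 ratio and the difference between arrays was 0.59 (Spearman rho 0.54), and over all genes it was -0.12. These points share the same 4 RNAs and are not independent, so no p-value is given. The Pearson r between the male and the female ratio was 0.74 over the members and 0.41 over all genes. The ratio itself was larger on the male array in 22 of 32 members, by a median of 0.11, and the SD of this difference was 0.23 over members and 0.27 over all genes. The share of sex, dye or dissection in the differences between arrays was not tested.

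**Figure D4:**
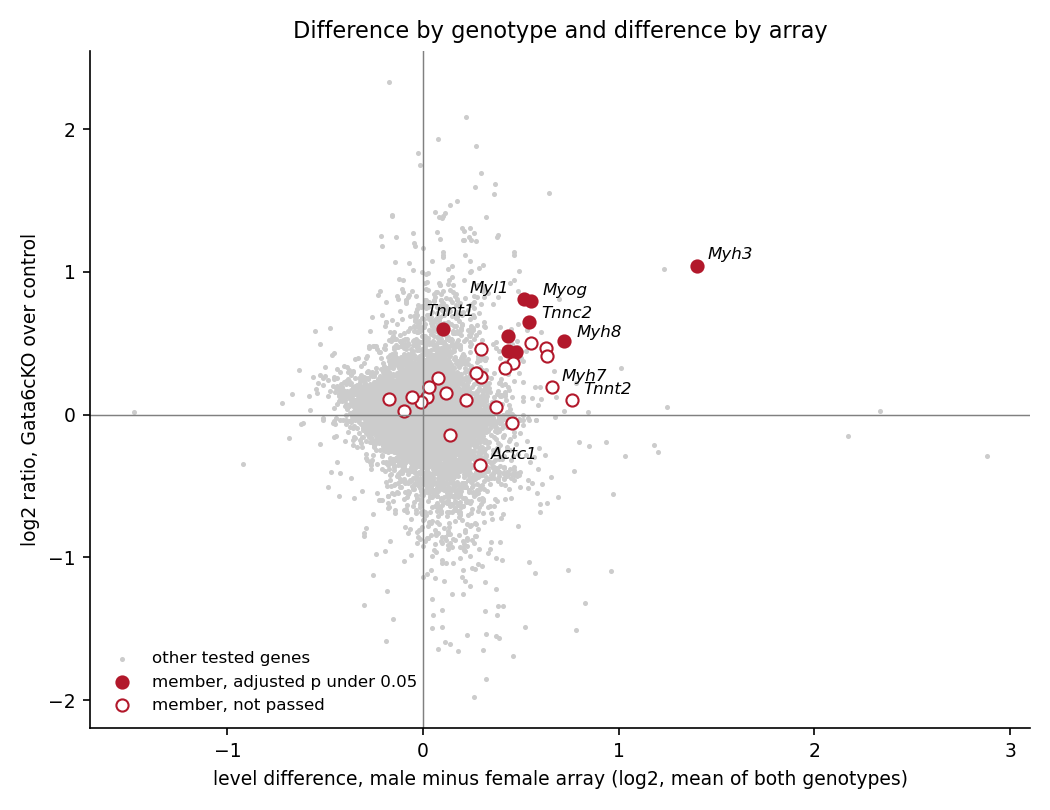
Mean log2 ratio of Gata6cKO over control against the level difference between the male and the female array (mean of both genotypes, log2), for the 32 members (circles, filled where the limma adjusted p is under 0.05) and the other tested genes (grey dots). Myh3 lies at 1.04 and 1.40, 28 of 32 members lie right of 0, and Tnnt1 is the filled circle nearest to 0 on the horizontal axis, at 0.10.

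Some skeletal muscle genes outside the member set rose as well. Of 87 such genes on the array 62 were measured, 5 rose (8.06%, against 2.22% of all genes) and 1 fell, with a median log2 ratio of 0.06. Of those that rose, Vgll2, a muscle cofactor of TEAD proteins, did so by 0.58 ± 0.11, Myom2, an M-band protein, by 0.51 ± 0.11, Myoz2, a Z-disc protein of slow muscle and heart, by 0.46 ± 0.12, and Itga7, a laminin receptor of muscle fibres, by 0.45 ± 0.11. Cox8b, a cytochrome oxidase subunit of striated muscle, fell by 0.59 ± 0.11 on the log2 scale. The number that rose was 0 with median centring (0.453% of all genes) and 12 with the authors' deposited values (3.42% of all genes). Myoz2 was kept through Gata6cKO alone, so a higher level there is favoured by the filter. With both genotypes required to be above background Myoz2 was not tested and 4 rose, where 2.09% of all genes did. The difference between arrays had a median of 0.07 in these 62 genes, against 0.40 in the members. Of the risen genes named here it was 0.60 in Vgll2, 0.54 in Myom2, 0.52 in Itga7 and 0.27 in Myoz2. The levels of Vgll2, Myom2 and Itga7 overlapped between the genotypes.

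Markers of several other cell types moved on the same arrays, where 2.22% of all tested genes rose and 2.36% fell. Several members are also made by the heart. Of 15 cardiac markers on the array 6 were measured and 2 rose, Myh6, the atrial heavy chain, by 0.47 ± 0.11 and Myoz2. Of the 6, Myoz2, Tnni3, Sln and Myl2 are also counted among the other skeletal muscle genes. The summed intensity of the 6 was 2349 and 1829 in male and female Gata6cKO RNA, against 1640 and 1574 in male and female control RNA, and Nppa, Nppb, Myl7, Nkx2-5, Tbx5, Ryr2, Pln, Mybpc3 and Ckmt2 were not above background. Of 20 measured genes of neurons and glia 12 rose and 2 fell (summed intensity 142544 and 149937 in male and female Gata6cKO RNA, against 130176 and 125126 in male and female control RNA). Among 17 measured smooth muscle genes there were 4 falls and 3 rises (135825 and 129664 in male and female Gata6cKO RNA, against 171759 and 137190 in male and female control RNA). Of 18 urothelial genes 10 fell and of 10 genes of fibroblast layers 5 fell, while 4 of 12 genes of nephron and kidney stroma rose. Among 12 red blood cell genes 5 fell (588563 and 494116 in male and female Gata6cKO RNA, against 722750 and 721992 in male and female control RNA), and of 6 measured mesothelial genes 4 fell and 2 rose. In ureteric mesenchyme 1 of 10 genes rose and 0 fell, with a median log2 ratio of 0.03. Of 8 endothelial genes 1 rose and 1 fell, and of 8 measured tendon and cartilage genes 1 rose and 0 fell. These lists share genes. Upk1b, Upk3b and Krt19 are counted among both the urothelial and the mesothelial falls. Wt1 is counted among the rises of both mesothelium and nephron and kidney stroma. For the member set the summed intensity was 55894 and 41982 in male and female Gata6cKO RNA, against 46143 and 40517 in male and female control RNA. Here the female Gata6cKO sum lay below the male control sum. Bright genes weigh most in such a sum, and Actc1, the brightest member in each RNA, had a log2 ratio of -0.35. The part of the makeup of the dissected tissue in the differences of the members was not tested.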

How the data were processed

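For each two-colour array, the deposited scanner file holds the raw mean intensity and the local background median intensity of each spot in both dyes, per the file headers. It also holds a processed intensity, which the authors made with Agilent Feature Extraction 10.7.3.1, per the submitters' processing notes, and its log10 ratio, per the file headers. The series table, as deposited, gives a score per probe. Comparison with the scanner files showed it to be a linear fold, Gata6cKO against control, with a minus sign where control is higher (no value between -1 and 1, medians 1). On the log2 scale it correlated with the processed ratios at r = 0.985 and 0.98. There were 0 unused per-sample columns.

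In R 4.3.3 with limma 3.58.1 and statmod 1.5.0, raw intensities were corrected with normexp (offset 50) and loess within each array, giving controls and outliers no weight. The 4 spots of a probe were averaged. Probes were kept where at least 3 spots were well above background in the same genotype on both arrays (26200 of 39429), and the brightest stood for its gene. Levels of single RNAs are log2 values after loess and Aquantile. Log2 ratios, turned for the dye swap, were fitted with lmFit and eBayes (1 residual and 12.2 prior degrees of freedom, prior SD 0.162), and p-values, two-sided, were adjusted by Benjamini-Hochberg over 19875 genes. A moderated SE is that of this fit, and intervals are 95%. The script was tested on simulated data. The array pairs the RNAs and is the replicate. Probe coordinates are mm9, per the file headers. No exon annotation of that build was used, so exon and UTR positions are not given. Of 39429 probes, 28328 had their symbol brought up to date by accession through RefSeq's GRCm38.p6 table, which also gave the promoters.

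The members and gene lists were chosen with earlier results of these data known. Named with their levels or both array ratios are those of the 6 transcription factors that were measured and the members that passed. The same holds for members whose probes disagree and members whose arrays differ by over 0.5. The factors that were not tested are named without values. Alternatives changed the signal, normalization, offset, filter, probe rule, prior, values and pairing. 1 gene of the other skeletal muscle genes that rose is not reported here.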

Additional observations from a re-analysis of the deposited data

Results flagged for a closer look

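In 4 measured members the ratio of Gata6cKO over control had opposite signs on the male and the female array. Atp2a1 had 0.27 in the male pair and -0.06 in the female pair, a difference of 0.33. Neb had -0.22 and 0.10, a difference of -0.32 at its brighter probe. Tnni2 had 0.11 and -0.01, a difference of 0.12. Actn3 had -6e-04 and 0.06, a difference of -0.0584. These differences were not tested, and those of Tnni2 and Actn3 are smaller than the SD of the same difference over all genes, 0.27. Sex, dye orientation and array cannot be told apart in them.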

How the results depend on the processing

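The number of risen members (9) was 15 with Agilent's processed signals, 14 with a normexp offset of 0, 14 with an intensity trend in the prior and 16 with the deposited series values, against 2.99%, 3.06%, 2.85% and 3.42% of all genes. It was 6 with no filter on dim probes (0.85% of all genes), where Tnnc2, Chrna1 and Mybph lost their calls, and 8 with both genotypes above background (2.09%). It was 1 with median centring, 1 with separate channels and 1 with separate channels and no replicate block (0.453%, 1.37% and 1.51% of all genes). The member median of 0.28 was 0.43 with processed signals, 0.38 with an offset of 0 and 0.42 with the deposited values, and it ranged from 0.22 to 0.34 when either array was left out. Among the other skeletal muscle genes the number that rose (5) was 10 with processed signals, 12 with an offset of 0, 9 with the trend and 12 with the deposited values. It was 4 with both genotypes above background, 3 with no filter, 0 with median centring and 1 with either form of separate channels. The number that fell (1) was 0 with median centring and with either form of separate channels (0.503%, 1.34% and 1.49% of all genes). Neb turned to 0.0809 with the mean of its probes, and it ranged from -0.22 to 0.10 when either array was left out. Over the 12 settings, the reported one included, Tnnt1 passed in 11, Myh3 in 10, Actn2, Myh8, Myl1 and Myog in 9, Mybph and Tnnc2 in 8 and Chrna1 in 7. Among the members that missed the threshold, Acta1, Tnnc1 and Tnni1 passed in 5 settings, Chrnd and Ttn in 4, Myod1 in 2 and Cav3 in 1. Each of the 9 risen members kept a positive ratio in every setting in which it was measured. Several settings change only the filter or the error, so the ratio of a probe could not change in them. The fits by separate channels are among these, and in them a difference between arrays adds to the error. The cause of the shifts in the counts was not tested. With 2 arrays each gene has 1 residual degree of freedom, so its error comes mostly from the prior, and signal over background limits dim members such as Pax3, Chrnd and Chrna1.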
